A study of Canis lupus familiaris with 6 samples.

Results

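Transcripts of 9 genes of the complement system were followed in canine adipose-derived stem cells that had been driven towards adipocytes with or without bisphenol A (BPA). They were chosen by name for their function and cover the components C3, C1R, C1S, C7 and CFB and the regulators CFI, SERPING1, CD55 and CD59. All 9 were among the 23299 genes of the expression table. The cells, fibroblast-like precursors from dog fat, were grown for 2 days and then kept for 14 days in differentiation medium. In both groups this medium held 1 µM dexamethasone, a glucocorticoid, with 200 nM rosiglitazone, a PPARG agonist, and 10 µg/mL insulin. Control cells received the solvent DMSO (3 libraries), and the others received 1 µM BPA, a plastics monomer with weak oestrogenic activity (3 libraries). The labels do not say whether the replicates of a group came from separate cultures or dogs, so the p-values below measure only the spread between these libraries, which may be technical. Undifferentiated cells were not analysed here, so no value below is a change with differentiation.

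Complement is a cascade of proteases and membrane-damaging proteins in plasma and tissue fluid. In its classical pathway C1q binds a target and activates the proteases C1r and C1s, which cut C4 and C2 into an enzyme that cleaves C3. In the alternative pathway factor B, cut by factor D, forms another such enzyme on C3 itself, and C5 to C9 then assemble into a membrane pore. Inhibitors hold each step: C1 inhibitor blocks C1r and C1s, factor I destroys C3b and C4b, CD55 dissociates the C3-cleaving enzymes and CD59 stops the pore. The liver makes most plasma complement, but stromal cells and adipocytes also transcribe many of its genes, and factor D is also known as the adipocyte product adipsin.

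Levels are given as TPM, the length-corrected share of a gene in its library scaled to 1000000, so that levels of different genes can be set side by side. TPM keeps no read depth, and the precision of low values is therefore unknown. Each library listed 19649 to 20321 genes above 0. One library stood apart: on the first principal component of the tested genes, which held 79.8% of the variance, BPA replicate 3 scored 61.1 and the other 5 libraries from -29.9 to 11.3. The sum of 9 stromal markers was 42110 TPM in that library and from 8760 to 17870 TPM in the others. Of this, 3 collagen genes (COL1A1, COL1A2 and COL3A1) made up 38760 TPM there. The other 6 markers summed to 3354 TPM, below the 3653 to 5163 TPM of the other libraries, and LUM and DCN made up most of that sum. LUM, DCN and NT5E were at their lowest there, while PDGFRA, PDGFRB and ENG were at their highest, at 128, 206 and 9.59 TPM. The part of these values in the results below was not tested. All 10 adipocyte markers had a higher mean with BPA (56.6% of tested genes did), 6 of them with no overlap between groups (5.38% of tested genes), and their sum ranged from 549 to 755 TPM in control and from 841 to 1029 TPM with BPA. GPD1, among those 6, passed the expression filter used below only through its BPA libraries (log2(TPM + 1) of 1.03, 0.963 and 0.516 in control, with a mean under 1). Of the 9 stromal markers measured 8 averaged over 1 TPM, while NT5E stayed at or under 0.22 TPM. Markers of other complement-producing cells were mixed. Of 10 leukocyte markers 7 stayed under 1 TPM, among them PTPRC, the common leukocyte antigen, at most 0.01 TPM, but CD14, CD68 and CSF1R were at 20.2 to 41.5, 2.78 to 8.11 and 1.67 to 2.63 TPM. Of 7 mesothelial markers 6 stayed under 1 TPM and UPK3B was at 26.0 to 43.4 TPM. The 3 hepatocyte and 6 endothelial markers measured each summed to under 1 TPM in every library. Whether cells with these markers bear on the results below was not tested.

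The 9 genes spanned levels from under 1 to over 200 TPM, and C1S was highest, C1R next and C7 lowest in each of the 6 libraries. C1S was the most abundant, at 252.6 ± 12.12 TPM (SD, n = 3) in control and 240.9 ± 24.4 TPM with BPA, and made up from 45.05% to 52.7% of the summed TPM of the 9 genes. C1R followed at 83.7 to 111 TPM over the 6 libraries, with no overlap with C1S or with CD59, the next gene, at 46.7 to 74.9 TPM. CD59, CFB (39.2 to 53.7 TPM) and SERPING1 (24.5 to 45.5 TPM) overlapped with their neighbours in that order, and lay at 46.7, 46.8 and 45.5 TPM in BPA replicate 3. C3, CFI and CD55 formed a low group whose ranges overlapped, from 0.695 to 6.13 TPM. C7 lay lowest, between 0.241 and 0.536 TPM, below every value of CD55.

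**Figure D1:**
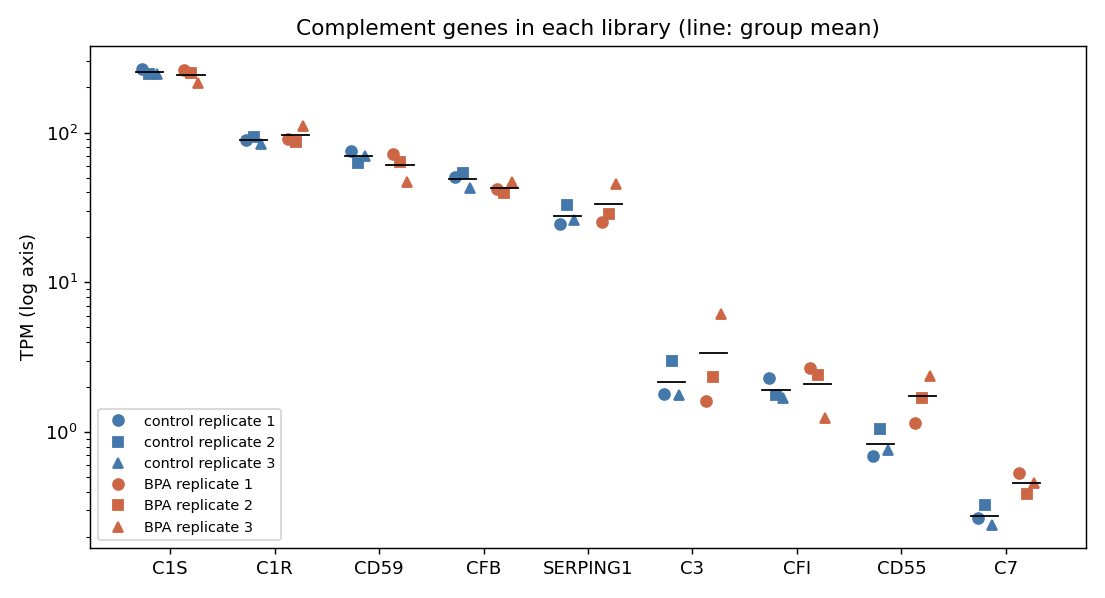
TPM (log axis) of the 9 complement genes in each of the 6 libraries, ordered by mean level, with control in blue, BPA in orange, replicates by symbol and group means as lines. C1S lies highest at 213 to 267 TPM, C7 lowest at 0.241 to 0.536 TPM, and the groups are apart only for CD55 and C7.

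The rest of the pathway was represented by 27 further complement genes out of 45 listed, and the other 18 were not analysed here. Transcripts were concentrated in the early proteases, in factor D and in inhibitors. CFD, the gene of factor D, was measured at 1839, 2113 and 1870 TPM in control replicates 1, 2 and 3 and at 2106, 2281 and 2745 TPM in the BPA libraries. In the same library this was 36.3 to 43.75 times the TPM of CFB, the gene of its substrate, in control. With BPA it was 50.55 to 58.6 times. The ratio was not tested, and how often ratios of other gene pairs lie apart was not computed. C2, the protease of the classical C3-cleaving enzyme, and C1RL, a C1r-like protease, averaged 9.35 ± 1.70 and 8.97 ± 2.20 TPM in control. Of C1q only the gene of its B chain, C1QB, was measured, at 0.661 to 1.79 TPM. The inhibitor clusterin (CLU), which binds forming pores, averaged 116.7 ± 0.90 TPM in control and 119.7 ± 3.12 TPM with BPA. C1QBP, a mainly mitochondrial protein that can bind C1q, averaged 157.4 ± 4.32 and 161.8 ± 3.99 TPM.

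Genes of the pore itself were scarcely transcribed. The 6 measured terminal genes all averaged under 1 TPM: C5 and C9 were at most 0.015 TPM, C6 at most 0.102 TPM and C8A at most 0.190 TPM, while C8G, the lipocalin subunit of C8, reached 1.13 TPM. Receptors were low as well, with C5AR1 at most 0.093 TPM and ITGB2, the shared chain of the leukocyte complement receptors, listed at 0 in 5 of 6 libraries. In all, 16 of the 27 genes stayed under 0.5 TPM in every library.

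**Figure D2:**
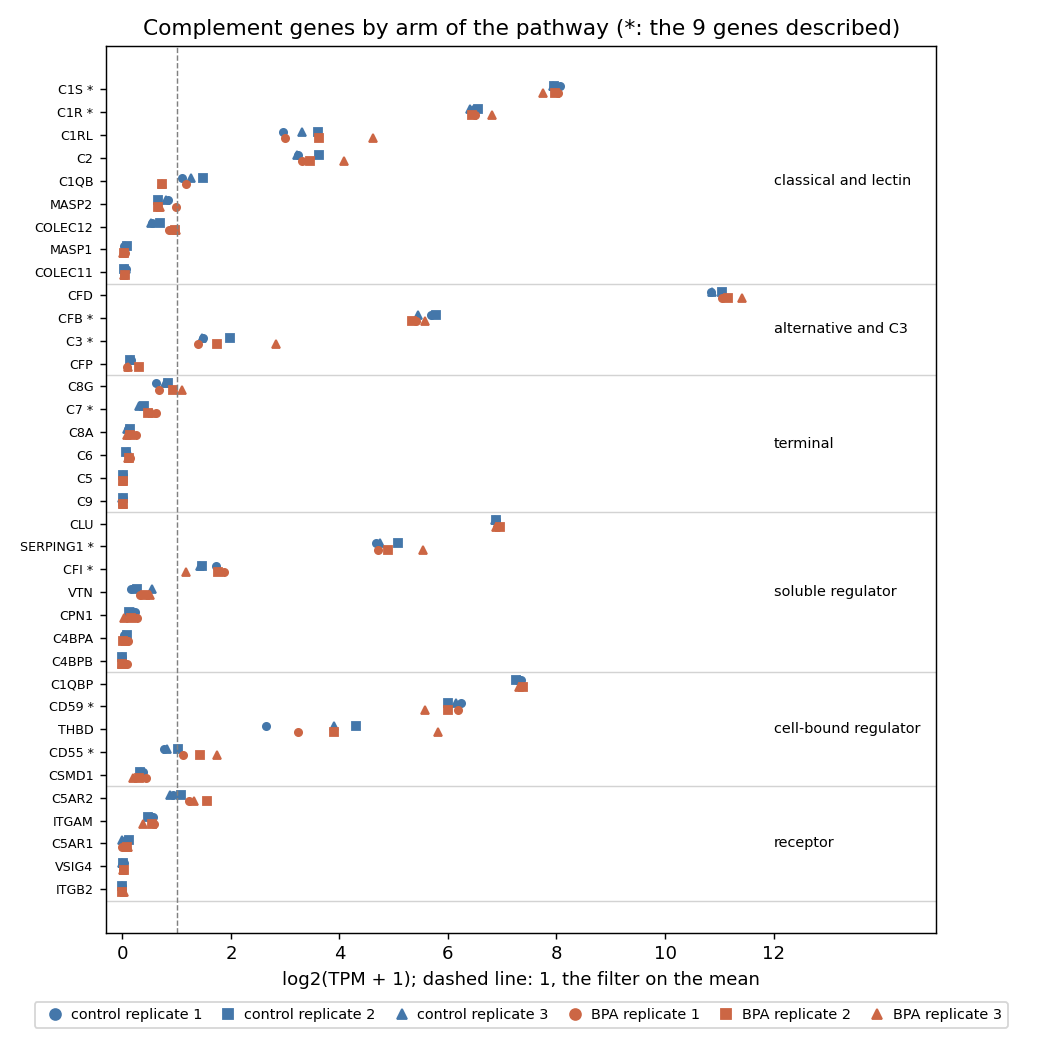
Level, as log2(TPM + 1), of 36 complement genes in each library, grouped by arm of the pathway, with the 9 genes described marked by an asterisk and the expression filter as a dashed line. CFD stands highest, and the 6 terminal genes lie at the left, near or below the filter.

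The comparison of BPA with control asked whether BPA alters these genes during differentiation. It was made by limma over 12277 genes that averaged 1 or more on the log2(TPM + 1) scale, which included 8 of the 9 and left out C7. None of the 8 passed, with adjusted p from 0.901 to 0.936, and neither did any other gene (0% of tested genes). At an unadjusted p under 0.05 there was 1 of 8 higher with BPA, CD55, against 1.87% of all tested genes, and 0 of 8 lower, against 1.7%. CD55 was also the 1 gene of the 8 whose BPA libraries all lay above control, which held for 5.38% of tested genes, and 0 of 8 lay wholly below, against 3.98%. CD55 passed the filter only through its BPA libraries: its log2(TPM + 1) was 0.761, 1.03 and 0.819 in control, with a mean under 1. Its place in these counts therefore depends on the BPA values themselves. By the group means 5 of the 8 genes lay above control, a share near the 56.6% of all tested genes (6952 of 12277). After median centring of the libraries these counts were 4 of 8 and 4852 of 12277, and without BPA replicate 3 they were 3 of 8 and 7077 of 12277. The median log2 change was 0.09 for the 8 genes and 0.03 for all tested genes.

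**Figure D3:**
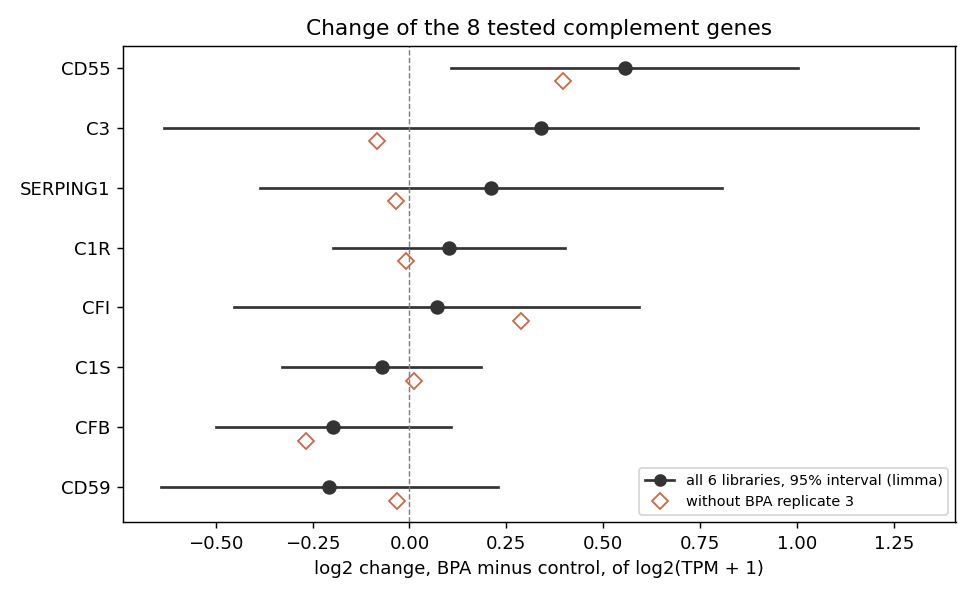
Log2 change, BPA minus control on the log2(TPM + 1) scale, of the 8 tested genes with limma's 95% interval (not adjusted over genes) from all 6 libraries, and the estimate without BPA replicate 3 as an open diamond. The interval of CD55 alone lies above 0, and the diamonds of C3, SERPING1, C1R and C1S lie on the other side of 0 from their filled points.

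CD55, the membrane protein that takes apart C3-cleaving enzymes, was measured at 0.695, 1.05 and 0.765 TPM in control replicates 1, 2 and 3 and at 1.16, 1.69 and 2.35 TPM in BPA replicates 1, 2 and 3. The groups did not overlap, and the margin between BPA replicate 1 and control replicate 2 was small. The group means were 0.836 ± 0.186 and 1.73 ± 0.599 TPM (SD, n = 3). The log2 change was 0.56 (SE 0.18, 95% interval 0.11 to 1.00), with an unadjusted p of 0.0231 and an adjusted p of 0.901 by limma. Because the gene is low, the size of the change depended on the pseudocount: it was 0.94 with 0.1 and 0.20 with 5 in place of 1. Without BPA replicate 3 it was 0.40. The unadjusted p was above 0.05 without control replicate 1 (0.0713), control replicate 3 (0.0671) or BPA replicate 2 (0.0584), and the adjusted p lay between 0.409 and 1 across the alternatives. The adipocyte marker sum was likewise higher in each BPA library than in any control library. LPL and PNPLA2, the most abundant genes in that sum, overlapped between groups, while 6 of the 10 markers did not. Of the 8 stromal markers tested, 8 had a higher mean with BPA (56.6% of tested genes did). Without BPA replicate 3 the count was 3 of 8, against 7077 of 12277 tested genes. Among them PDGFRA alone had no overlap between groups (5.38% of tested genes). It was at 71.05, 83.9 and 69.0 TPM in control and 95.4, 94.7 and 128 TPM with BPA. The part of adipocyte or stromal markers in the CD55 values was not tested. In bulk RNA a change in the number of cells of a type and a change in RNA per cell cannot be told apart.

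CD59, the membrane inhibitor of the pore, is a lipid-anchored protein like CD55 but its transcript was far more abundant. It was measured at 74.9, 62.6 and 70.0 TPM in control and at 71.8, 63.3 and 46.7 TPM with BPA. Apart from the low BPA replicate 3 the groups covered the same range. The log2 change was -0.21 (SE 0.18, 95% interval -0.64 to 0.23), and -0.03 without BPA replicate 3. In TPM there were 59.8 to 107.7 CD59 transcripts per CD55 transcript in control, and 61.95, 37.6 and 19.8 in BPA replicates 1, 2 and 3, so the groups overlapped.

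C7, the component that lets the forming pore insert into a membrane, lay under the expression filter and entered no test over the filtered genes. Its values were 0.265, 0.325 and 0.241 TPM in control and 0.536, 0.387 and 0.455 TPM with BPA. The BPA libraries were all above control, which held for 3.7% of all genes under the filter. Genes at 0 in libraries of both groups count among these and cannot meet this, so the share among genes like C7 may be higher. For C7, BPA replicate 1 was highest and BPA replicate 3 lay between the others. When every gene was fitted without a filter, the log2 change of C7 was 0.19 (SE 0.05), with an unadjusted p of 0.0108 and an adjusted p of 0.861 by limma. In that fit 1066 of 23299 genes had an unadjusted p under 0.05 in either direction. Leaving out 1 library at a time gave changes from 0.15 to 0.23. At such levels on the log2(TPM + 1) scale a change is understated, and the reads behind these values are unknown.

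The C1 proteases and their inhibitor overlapped between groups. C1R, whose product activates C1s, was measured at 88.8, 93.4 and 83.7 TPM in control and at 89.8, 86.3 and 111 TPM with BPA (log2 change 0.10, SE 0.12, 95% interval -0.20 to 0.40). C1S, whose product cuts C4 and C2, was at 266.5, 246.5 and 244.6 TPM in control and at 259.5, 250.0 and 213 TPM with BPA (log2 change -0.07, SE 0.10, 95% interval -0.33 to 0.19). In 5 libraries each gene stayed within a narrow range, and BPA replicate 3 held the highest C1R and the lowest C1S value. C1R and C1S neighbour each other in the dog RefSeq gene table (assembly UU_Cfam_GSD_1.0, used for names and gene order only), with C1RL next to C1R. Even so, the C1S to C1R ratio was 1.92 in BPA replicate 3 and at least 2.64 in each of the other 5. Without BPA replicate 3 the changes were -0.01 for C1R and 0.01 for C1S.

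SERPING1, the gene of C1 inhibitor, was measured at 24.5, 32.9 and 26.0 TPM in control and at 25.3, 28.6 and 45.5 TPM with BPA. BPA replicates 1 and 2 fell inside the control range and BPA replicate 3 lay above it. The group means were 27.8 ± 4.46 and 33.1 ± 10.8 TPM, and the log2 change was 0.21 (SE 0.24, 95% interval -0.39 to 0.81). It was -0.03 without BPA replicate 3. The SERPING1 to C1S ratio was 0.213 in BPA replicate 3 and between 0.0921 and 0.134 elsewhere.

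C3, the protein on which all pathways converge, had the widest range of the 9 genes, 1.45 on the log2(TPM + 1) scale. It was measured at 1.80, 2.97 and 1.76 TPM in control and at 1.62, 2.33 and 6.13 TPM with BPA. The highest value was BPA replicate 3 and the lowest BPA replicate 1, so the BPA group enclosed the control group. The log2 change was 0.34 (SE 0.39, 95% interval -0.63 to 1.31), and -0.09 without BPA replicate 3. This was the widest interval of the 8 tested genes.

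CFB, the alternative pathway protease, was measured at 50.7, 53.7 and 42.8 TPM in control and at 41.7, 39.2 and 46.8 TPM with BPA. BPA replicates 1 and 2 lay below all control libraries, while BPA replicate 3 lay above control replicate 3. The group means were 49.05 ± 5.66 and 42.6 ± 3.89 TPM, with a log2 change of -0.20 (SE 0.12, 95% interval -0.50 to 0.11). The estimate was negative under every alternative run, from -0.29 to -0.13, and was -0.27 without BPA replicate 3. CFB neighbours C2 in the gene table. C2 was at 8.40, 11.3 and 8.34 TPM in control and at 8.97, 9.92 and 15.9 TPM with BPA, a log2 change of 0.26 (SE 0.24). For CFD the log2 change was 0.29 (SE 0.13, 95% interval -0.04 to 0.61), with control replicate 2 just above BPA replicate 1.

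CFI, the protease that inactivates C3b and C4b, was measured at 2.29, 1.76 and 1.68 TPM in control and at 2.68, 2.40 and 1.25 TPM with BPA. BPA replicates 1 and 2 were above all control libraries and BPA replicate 3 was below them. The log2 change was 0.07 (SE 0.21, 95% interval -0.45 to 0.59). It was 0.29 without BPA replicate 3, -0.07 without BPA replicate 1 and -0.01 without BPA replicate 2, and it was also -0.01 after median centring.

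BPA replicate 3 stood away from the other libraries for most of the 9 genes. Against the mean of the other 5 libraries, on the log2(TPM + 1) scale, it was higher by 1.22 for C3, 0.72 for CD55, 0.71 for SERPING1 and 0.33 for C1R. It was at -0.54 for CD59, -0.48 for CFI and -0.25 for C1S. CFB and C7 differed least on this scale, at 0.05 and 0.11. The scale understates differences of low genes such as C7 and CFI, so this order depends partly on level. BPA replicate 3 was the highest library for 4 of the 8 tested genes and the lowest for 3. These shares are near those of all tested genes, of which 38.9% had their highest and 42.4% their lowest value there. The sum over the 9 genes did not stand apart: it was 473 TPM there and lay between 472 and 510.5 TPM elsewhere.

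**Figure D4:**
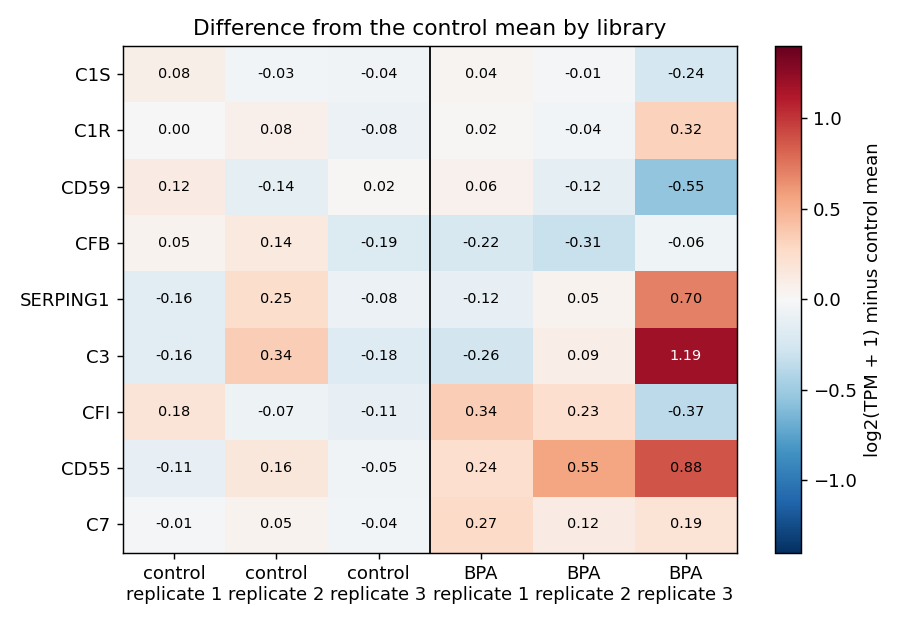
Difference of log2(TPM + 1) from the control mean for the 9 genes (rows, by level) in the 6 libraries (columns), red above and blue below the control mean, with each value printed. BPA replicate 3 differs most for each gene but CFB and C7, from 1.19 for C3 to -0.55 for CD59. C7 and CD55 are above the control mean in all 3 BPA libraries.

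Of the 27 further complement genes, 8 were tested, 7 had a mean above control (56.6% of all tested genes) and 1, C1QB, below, and the median log2 change was 0.27. C1QB passed the filter only through its control libraries: its log2(TPM + 1) was 1.17, 0.732 and 0.737 with BPA, with a mean under 1. Its place in this count therefore depends on the control values themselves. After median centring 5 of the 8 were above and 3 below, and without BPA replicate 3 the median was 0.04. None passed over all genes. At an unadjusted p under 0.05 there was 1 of 8 higher, against 1.87% of all tested genes. This was C5AR2, a receptor of C5a, at 0.912, 1.11 and 0.833 TPM in control and 1.33, 1.94 and 1.51 TPM with BPA (log2 change 0.40, SE 0.12, adjusted p = 0.901 by limma). Like CD55, C5AR2 passed the filter only through its BPA libraries: its log2(TPM + 1) was 0.935, 1.08 and 0.874 in control, with a mean under 1. At that threshold 0 of the 8 were higher and 1 lower after median centring, against 107 and 201 of 12277 tested genes. After quantile normalization 2 were higher and 0 lower, against 135 and 197 of 12277. Of the 19 genes under the filter, 2 had all BPA libraries above control, which held for 3.7% of all genes under the filter, those at 0 included. They were the membrane collectin gene COLEC12, at 0.505 ± 0.098 against 0.924 ± 0.095 TPM, and C6, at 0.055 ± 0.012 against 0.090 ± 0.013 TPM. THBD, an anticoagulant receptor that also restrains complement, had the widest spread, at 5.25, 18.7 and 14.0 TPM in control and 8.40, 13.9 and 55.4 TPM with BPA (log2 change 0.70, SE 0.77). C1RL was at 6.81, 11.2 and 8.88 TPM in control and 6.99, 11.3 and 23.6 TPM with BPA. C1RL and THBD both had their highest value in BPA replicate 3 and log2 changes of 0.45 and 0.70 with intervals that held 0.

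Transcription factors known to act on complement genes were measured for 14 of 15 listed names, of which 12 were tested. For 11 the mean lay above control, against 56.6% of all tested genes, and for 1, IRF2, below (median log2 change 0.27), but without BPA replicate 3 the count was 6 above and 6 below (median 0.0012). For 10 of the 12 the highest library was BPA replicate 3, against 38.9% of all tested genes. The C/EBP family genes CEBPB and CEBPD, which act in adipogenesis and in the acute phase response, averaged 124.9 ± 34.2 and 491.4 ± 83.2 TPM in control and 164.4 ± 96.2 and 688 ± 246 TPM with BPA. RELA, an NF-kB subunit, averaged 21.8 ± 6.64 and 29.9 ± 19.2 TPM, and the cytokine-response gene STAT3 had a log2 change of 0.30 (SE 0.22). The glucocorticoid receptor gene NR3C1 was at 16.1 ± 0.28 and 17.5 ± 1.51 TPM, and IRF2 at 10.3 ± 0.49 and 9.85 ± 0.70 TPM. HNF4A, best known as a liver factor, was the 1 gene of the 12 with an unadjusted p under 0.05 (1.87% of all tested genes were higher at that threshold), at 1.03, 1.13 and 1.03 TPM in control and 1.59, 1.90 and 2.17 TPM with BPA (log2 change 0.48, SE 0.10, adjusted p = 0.901 by limma). The oestrogen receptor genes ESR1 and ESR2, whose products bind BPA, were at most 0.118 and 0.013 TPM.

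The genes whose profile over the 6 libraries was most like that of C3 were TLE1, ESPL1, MARK2, PPP6R2 and DISP1. Likeness was the root mean square difference of log2(TPM + 1) after each gene's own mean was subtracted, from 0.0346 for TLE1 to 0.0431 for DISP1, where a smaller value is closer. Each of them had its highest value in BPA replicate 3, as TLE1 did with 12.4 TPM against 4.02 to 6.53 TPM elsewhere. For CD55, the next widest in range, they were SPINT3, ANGPT4, CCDC85B, NRP1 and TMEM200B, at 0.0479 to 0.0752. SPINT3 was at 1.49, 1.99 and 1.73 TPM in control and 2.28, 2.75 and 3.89 TPM with BPA. These genes were selected for likeness among 12277, so their profiles carry no test.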

How the data were processed

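Per the labels' protocols, total RNA was column-purified and made into stranded, poly(A)-selected libraries for Illumina sequencing. The authors deposited log2 values, named as normalized log TPM. They were read as log2(TPM + 1), because 2 to each value, minus 1, summed to 1000000 in every column. The aligner, counting tool, annotation and build were not given in the sources used here. Hence no coordinates are printed, and depth and the handling of reads shared between related genes, such as C1R and C1RL, are unknown. Names were looked up in the RefSeq table of UU_Cfam_GSD_1.0, where 22346 of 23299 matched, all 9 complement genes among them.

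Groups and replicate numbers came from the sample titles. The BPA and control libraries were compared with limma 3.58.1 (R 4.3.3; empirical Bayes with a trend, two-sided, no covariate) on genes averaging 1 or more on the log2(TPM + 1) scale, with Benjamini-Hochberg adjustment over all of them and a threshold of 0.05. The test was checked on simulated data with independent noise in each gene, which held no library that stands apart as BPA replicate 3 does. That check therefore does not show how the test behaves on these data. Tables and figures were made in Python 3.11.15 with pandas 2.3.3 and matplotlib 3.10.9. The genes, lists and the naming rule were chosen with earlier results of these data known. The rule named all 9 genes and, from the other complement genes and transcription factors, those at 10 TPM or more on average or with an unadjusted p under 0.05. Genes named besides these, such as C1QB and the terminal genes, were chosen after their values were seen. Alternatives covered filters, pseudocounts, scaling, the variance model, a replicate block and leaving out each library. Some listed genes are not reported here.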

Additional observations from a re-analysis of the deposited data

How the results depend on the processing

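No complement gene passed the threshold under any alternative run. Over all genes, 0 passed with the filter (439 at an unadjusted p under 0.05), 6 passed without a filter on 23299 genes, and leaving out 1 library gave from 0 to 1, the 1 being without BPA replicate 3. The tested complement genes above control numbered 5 of 8, but 2 of 5 under the stricter filter (mean of at least 3, which removed C3, CFI and CD55) and from 3 to 5 when 1 library was left out. Their median log2 change turned to -0.072 under the stricter filter and ranged from -0.021 to 0.117 when 1 library was left out. Over those fits the log2 change ranged from -0.085 to 0.638 for C3, -0.008 to 0.171 for C1R, -0.128 to 0.013 for C1S, -0.034 to 0.376 for SERPING1 and -0.067 to 0.288 for CFI. CFI was also at -0.014 after median centring. A sign that changed when a library was left out comes from removing that library. The sign of the median under the stricter filter comes from removing C3, CFI and CD55. The cause of the changed sign of CFI after median centring was not tested. CD55, CD59, CFB and C7 kept their direction in every fit run for them. Of the same-numbered libraries, those of replicate 1 varied together and those of replicates 2 and 3 did not (correlations of deviations 0.718, -0.44 and -0.232). The highest such correlation, 0.787, was between control replicate 2 and BPA replicate 3. With 3 libraries per group these values cannot decide whether the numbers mark pairs, and the numbers were not taken as pairs. With the replicate block 0 genes passed (264 at an unadjusted p under 0.05), and the change of CD55 was 0.556 (SE 0.163). Unknown depth limits what can be said of C7, CD55, CFI and C3.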

Other observations

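CD14, a receptor best known from monocytes, was measured at 23.2, 29.7 and 20.2 TPM in control and at 25.6, 34.5 and 41.5 TPM with BPA (log2 change 0.45, SE 0.22, adjusted p = 0.901 by limma). Of the other leukocyte markers CD68 was at 4.99, 6.88 and 5.46 TPM in control and 3.41, 2.78 and 8.11 TPM with BPA, and CSF1R at 2.36, 2.63 and 2.37 against 1.67, 2.27 and 2.16 TPM, with all BPA libraries below control (as for 3.98% of tested genes). The remaining 7 markers, PTPRC, LYZ and MSR1 among them, stayed under 1 TPM. UPK3B, a mesothelial marker, was at 26.4, 33.4 and 27.3 TPM in control and 26.0, 37.0 and 43.4 TPM with BPA, while the other 6 mesothelial markers measured stayed under 1 TPM. CD14 and UPK3B had their highest value in BPA replicate 3.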
